A study of Mus musculus with 10 samples.

Results

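*Pecam1*, *Cdh5*, *Kdr*, *Tek*, *Tie1*, *Flt1*, *Cldn5*, *Emcn*, *Slc2a1* and *Mfsd2a*, 10 of the 54146 genes counted, were chosen by name as genes of the vascular endothelium and of the early blood-brain barrier. All 10 passed the expression filter that left 19773 genes for testing. The data were RNA-seq read counts per gene from the lumbar spinal cord of 10 mouse embryos at E12.5, with the dorsal root ganglia left on the tissue, from 2 litters on the B6.Cg-E2f1Tg(Wnt1-cre)2Sor/J background. The 5 *Dot1l*-cKO embryos were Wnt1cre2/+; Dot1lfl/fl, 3 in litter 1 and 2 in litter 2. The 5 controls carried no cre, and were Dot1lfl/fl in litter 1 (3 embryos) and Dot1lfl/+ in litter 2 (2 embryos). DOT1L is the methyltransferase of histone H3 lysine 79, and the Wnt1-driven cre removes it from the dorsal neural tube and the neural crest. The paper also describes scattered reporter signal in ventral cells. The endothelium is taken here to lie outside the cells in which the transgene is active, which was not tested.

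Blood vessels enter the neural tube from a plexus around it, guided by VEGF from the neural tissue, and their endothelial cells acquire barrier properties under Wnt7 signals from neural progenitors. Endothelial cells are held together by VE-cadherin (*Cdh5*), PECAM-1 (*Pecam1*) and, at tight junctions, claudin 5 (*Cldn5*). They sense VEGF through *Kdr* (VEGFR2) and *Flt1* (VEGFR1), and angiopoietins through *Tek* (TIE2), the partner of the orphan receptor *Tie1*. *Emcn* encodes endomucin, a sialomucin of the endothelial surface, *Slc2a1* the glucose transporter GLUT1, which red cell precursors and neural cells also use, and *Mfsd2a* a lipid transporter of barrier endothelium.

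In litter 1, 7 of the 10 genes lay lower in every *Dot1l*-cKO embryo than in every control, against 9.47% of all tested genes, and in litter 2 none did, against 27.5%. None of the 10 passed the test of edgeR between genotypes, within either litter or over both. Of all tested genes 0.612% passed it in litter 1, 0.202% in litter 2 and 2.99% over both. DESeq2 called 4 of the 10 in litter 1 (4.19% of all genes), *Cldn5* in litter 2 (3.56%) and *Kdr* over both (8.98%). Between litters, *Cldn5*, *Tek*, *Cdh5* and *Mfsd2a* were lower in litter 2, as were 17.8% of all tested genes. Set against the other endothelial genes, *Cldn5* was the only one of the 10 that lay higher in *Dot1l*-cKO embryos than in controls in both litters, a position held by 4.11% of all tested genes.

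The sequences around the starts of 3 endothelial receptors and of *Cldn5*, genes on which the values below turn, are shown here as a description. They are RefSeq windows on GRCm38.p6 (the build of mm10) from 250 bases before to 50 bases after the annotated start, written 5′ to 3′ on the gene's strand. Capitals mark the core of the ETS motif, GGAA or on the other strand TTCC, the letters bound by the ETS factors that endothelial genes commonly use.
Kdr (chr5:75978406-75978705, minus strand): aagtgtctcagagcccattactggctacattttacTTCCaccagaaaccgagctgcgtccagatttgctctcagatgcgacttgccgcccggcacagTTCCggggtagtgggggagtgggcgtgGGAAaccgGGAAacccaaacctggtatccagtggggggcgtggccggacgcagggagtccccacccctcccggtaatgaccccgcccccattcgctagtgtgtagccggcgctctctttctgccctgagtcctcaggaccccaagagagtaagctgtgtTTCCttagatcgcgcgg
Tek (chr4:94739039-94739338, plus strand): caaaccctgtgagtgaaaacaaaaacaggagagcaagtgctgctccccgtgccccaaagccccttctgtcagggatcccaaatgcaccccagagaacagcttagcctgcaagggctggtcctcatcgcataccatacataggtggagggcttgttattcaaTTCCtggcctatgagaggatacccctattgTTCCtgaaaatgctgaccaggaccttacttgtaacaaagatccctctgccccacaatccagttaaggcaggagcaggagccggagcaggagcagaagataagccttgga
Tie1 (chr4:118489800-118490099, minus strand): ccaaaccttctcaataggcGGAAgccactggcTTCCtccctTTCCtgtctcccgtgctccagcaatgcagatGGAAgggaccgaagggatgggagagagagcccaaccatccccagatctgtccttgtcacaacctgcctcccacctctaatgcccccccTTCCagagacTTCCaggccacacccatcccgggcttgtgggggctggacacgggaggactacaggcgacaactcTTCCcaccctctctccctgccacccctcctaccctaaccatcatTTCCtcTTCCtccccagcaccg
Cldn5 (chr16:18776597-18776896, plus strand): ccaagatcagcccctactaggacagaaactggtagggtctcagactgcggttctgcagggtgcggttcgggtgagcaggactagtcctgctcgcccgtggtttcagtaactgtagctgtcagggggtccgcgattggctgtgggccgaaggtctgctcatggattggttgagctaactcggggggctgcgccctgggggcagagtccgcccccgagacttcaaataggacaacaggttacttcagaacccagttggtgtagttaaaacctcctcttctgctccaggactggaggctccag
Counting both strands, the core stood 5 times in the *Kdr* window, 2 times in *Tek*, 9 times in *Tie1*, 4 times in *Flt1*, 6 times in *Emcn* and 3 times in *Mfsd2a*, and it was not found in the windows of *Cldn5* and *Slc2a1*. At 4 letters it is common: 96.0% of 32851 windows of this length held at least 1, with a median of 3. *Pecam1* and *Cdh5* had no window in the table.

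Total counts lay between 40949585 and 68928443 per embryo. The 10 genes had between 365 and 7587 reads each in an embryo and made up 0.0358% to 0.0541% of the counts. The unit is CPM, a count relative to its TMM-scaled library. A gene is called where the quasi-likelihood test of edgeR, which took the litter into the model, gave a Benjamini-Hochberg adjusted p below 0.05 over all 19773 genes. Nothing in the labels says more of the embryos than their litter and genotype, and the p-values measure the spread between embryos of these 2 litters. Counts over the whole *Dot1l* gene ranged from 87.6 to 107 CPM (controls) and from 97.8 to 112 CPM (*Dot1l*-cKO), so they do not check the genotype. *Xist* lay at 6.00 to 6.79 CPM in both *Dot1l*-cKO embryos of litter 2 and at 499 to 890 CPM in the other 8 embryos, so that in litter 2 genotype and sex cannot be told apart. Across litters, the litter cannot be told apart from the number of floxed alleles in controls.

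All 10 genes were detected in every embryo. Per kilobase of exon, which allows genes to be compared, *Slc2a1* was highest at 31.0 ± 3.65 CPM per kb (SD, n = 10), followed by *Cldn5* at 25.1 ± 6.07 and *Cdh5* at 14.8 ± 2.88. *Mfsd2a* came next at 10.8 ± 1.34 CPM per kb, then *Tie1* at 8.81 ± 1.37, *Kdr* at 8.50 ± 1.66 and *Pecam1* at 6.81 ± 1.02. The lowest were *Tek* at 3.85 ± 0.965, *Emcn* at 2.29 ± 0.392 and *Flt1* at 1.65 ± 0.290 CPM per kb. The ranges of neighbours in this order overlapped throughout. Within single embryos the order was steady for most steps, *Cldn5* being above *Cdh5* in 10 of 10 embryos, but *Slc2a1* was above *Cldn5* in 7, *Mfsd2a* above *Tie1* in 8 and *Tie1* above *Kdr* in 6.

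**Figure D1:**
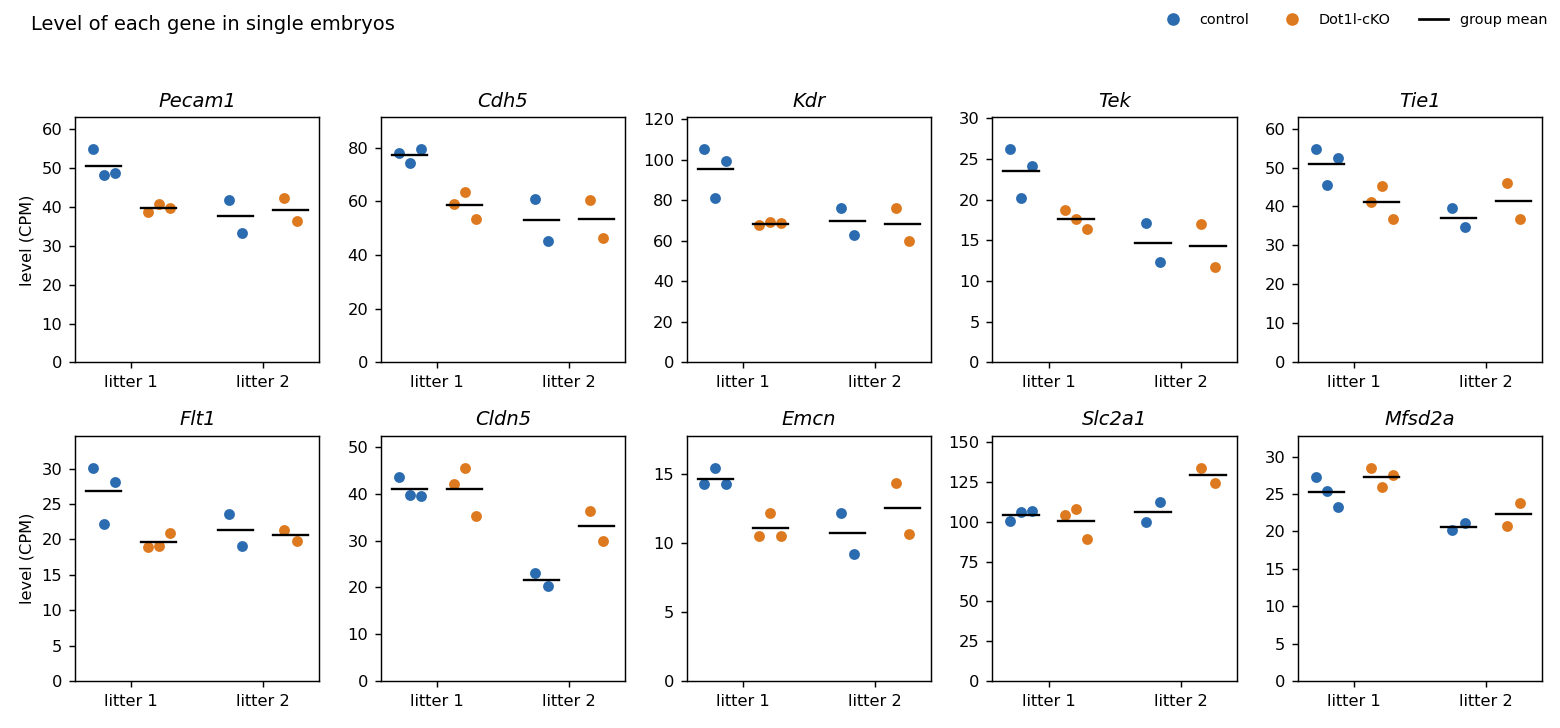
Level of each of the 10 genes in CPM (vertical axis, starting at 0) in single embryos, by litter, with controls in blue, *Dot1l*-cKO embryos in orange and group means as bars. In litter 1, *Pecam1*, *Cdh5*, *Kdr*, *Tek*, *Tie1*, *Flt1* and *Emcn* lay lower in all 3 *Dot1l*-cKO embryos than in all 3 controls, and in litter 2 the genotypes overlapped for these genes.

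Among the junction genes, *Cdh5* (chr8:104101625-104144511, plus strand) lay at 78.0, 74.1 and 79.3 CPM in the controls of litter 1 and at 59.0, 63.5 and 53.4 CPM in its *Dot1l*-cKO embryos. In litter 2 it was at 60.8 and 45.2 CPM in controls and at 60.4 and 46.5 CPM in *Dot1l*-cKO embryos. The controls of litter 1 stood above all other embryos, while the genotypes of litter 2 covered nearly the same range. *Pecam1* (chr11:106654217-106750628, minus strand) followed the same pattern, with 54.8, 48.0 and 48.6 CPM in controls against 38.6, 40.8 and 39.6 CPM in *Dot1l*-cKO embryos of litter 1. Litter 2 had 41.8 and 33.4 CPM in controls and 42.2 and 36.3 CPM in *Dot1l*-cKO embryos. Again only the controls of litter 1 stood apart. Within litter 1 the log2 fold change was -0.40 for *Cdh5* (standard error 0.11, adjusted p = 0.116) and -0.35 for *Pecam1* (0.09, adjusted p = 0.0949), and in litter 2 it was 0.01 and 0.06.

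The VEGF receptors had the largest differences within litter 1. *Kdr* (chr5:75932827-75978458, minus strand), the main signalling receptor for VEGF, lay at 105, 81.0 and 99.7 CPM in controls and at 67.7, 69.1 and 68.9 CPM in *Dot1l*-cKO embryos of litter 1. The values in litter 2 were 76.1 and 63.1 CPM in controls and 76.4 and 60.0 CPM in *Dot1l*-cKO embryos. The 3 *Dot1l*-cKO embryos of litter 1 differed by less than 2 CPM and lay inside the range of litter 2. *Flt1* (chr5:147561604-147726011, minus strand), which binds VEGF with little signalling of its own, was at 30.1, 22.2 and 28.1 CPM in controls and at 18.9, 19.1 and 20.8 CPM in *Dot1l*-cKO embryos of litter 1. In litter 2 it was at 23.6 and 19.0 CPM in controls and at 21.3 and 19.8 CPM in *Dot1l*-cKO embryos. The lowest control of litter 1 (22.2 CPM) came close to the *Dot1l*-cKO embryos. In litter 1, *Kdr* had a log2 fold change of -0.48 (standard error 0.11, adjusted p = 0.0645) and *Flt1* of -0.45 (0.11, adjusted p = 0.0878), and in litter 2 of -0.03 and -0.05. Without control embryo 5, both receptors were called in litter 1 (adjusted p = 0.0306 and 0.0326), and *Kdr* also without *Dot1l*-cKO embryo 3 (adjusted p = 0.0448).

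*Tek* (chr4:94739289-94874976, plus strand), the angiopoietin receptor, was at 26.2, 20.2 and 24.1 CPM in controls and at 18.8, 17.6 and 16.3 CPM in *Dot1l*-cKO embryos of litter 1. Litter 2 had 17.1 and 12.3 CPM in controls and 17.0 and 11.7 CPM in *Dot1l*-cKO embryos. In litter 2, 1 embryo of each genotype was lower than every embryo of litter 1. *Tie1* (chr4:118471191-118490061, minus strand) was at 54.7, 45.6 and 52.6 CPM in controls and at 41.1, 45.2 and 36.8 CPM in *Dot1l*-cKO embryos of litter 1. The values in litter 2 were 39.5 and 34.7 CPM in controls and 46.2 and 36.8 CPM in *Dot1l*-cKO embryos. The genotypes of litter 1 were separated by less than 1 CPM for *Tie1*. *Emcn* (chr3:137341067-137432185, plus strand) was at 14.3, 15.5 and 14.3 CPM in controls and at 10.5, 12.2 and 10.5 CPM in *Dot1l*-cKO embryos of litter 1. In litter 2 it was at 12.2 and 9.23 CPM in controls and at 14.4 and 10.7 CPM in *Dot1l*-cKO embryos, so that here the genotypes overlapped. Within litter 1 the log2 fold changes were -0.42 for *Tek* (standard error 0.15, adjusted p = 0.187), -0.31 for *Tie1* (0.10, adjusted p = 0.166) and -0.40 for *Emcn* (0.13, adjusted p = 0.159), and within litter 2 they were -0.04, 0.16 and 0.22.

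*Cldn5* (chr16:18776847-18778262, plus strand) did not share this pattern. In litter 1 it lay at 43.6, 39.8 and 39.5 CPM in controls and at 42.2, 45.6 and 35.3 CPM in *Dot1l*-cKO embryos, and the genotypes overlapped. Litter 2 had 23.0 and 20.3 CPM in controls and 36.3 and 29.9 CPM in *Dot1l*-cKO embryos. Both controls of litter 2 were the lowest of all 10 embryos, and the genotypes did not overlap there. The log2 fold change was -0.00 in litter 1 (standard error 0.10, adjusted p = 0.9997) and 0.61 in litter 2 (0.13, adjusted p = 0.0752). With litter 2 fitted alone it was called (0.61, adjusted p = 0.0074, against 5.13% of all genes), as it was with DESeq2 (adjusted p = 0.0012).

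Of the transporters, *Slc2a1* (chr4:119108711-119137983, plus strand) was at 100.5, 106 and 107 CPM in controls and at 104, 108 and 88.9 CPM in *Dot1l*-cKO embryos of litter 1. The values in litter 2 were 99.8 and 113 CPM in controls and 134 and 125 CPM in *Dot1l*-cKO embryos. The 2 *Dot1l*-cKO embryos of litter 2 stood above the other 8. The log2 fold change was -0.06 in litter 1 (standard error 0.08, adjusted p = 0.785) and 0.28 in litter 2 (0.09, adjusted p = 0.166), and with litter 2 fitted alone it was called (0.29, adjusted p = 0.0396). The summed level of 13 erythroid genes was also highest in these 2 embryos, at 1711 and 2130 CPM against 886 to 1508 CPM in the others, and its part in the *Slc2a1* level was not tested. *Mfsd2a* (chr4:122946850-122961188, minus strand) was at 27.2, 25.4 and 23.3 CPM in controls and at 28.5, 25.9 and 27.5 CPM in *Dot1l*-cKO embryos of litter 1. In litter 2 it was at 20.1 and 21.1 CPM in controls and at 20.8 and 23.8 CPM in *Dot1l*-cKO embryos. The genotypes overlapped in both litters, with a log2 fold change of 0.11 in each.

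Counted over the 10 genes, 7 lay lower in all *Dot1l*-cKO embryos than in all controls of litter 1, against 9.47% of all tested genes, and the median log2 fold change was -0.37 against 0.00 over all genes. None of the 10 was called in litter 1, where 121 genes (0.612%) were. Leaving out single embryos took these 121 to between 2 (without control embryo 9) and 649 (without *Dot1l*-cKO embryo 3). At an unadjusted p under 0.05 there were 7 of the 10, against 15.4% of all genes. DESeq2 called 4 (*Pecam1*, *Cdh5*, *Kdr* and *Flt1*), against 4.19%, and limma-voom 0, against 0.663%. In litter 2, none lay below the controls, against 27.5% of all tested genes, and *Cldn5* and *Slc2a1* lay above them, against 24.2%. There the median log2 fold change of the 10 was 0.09 against -0.02 over all genes. None was called there, where 40 genes (0.202%) were, a number between 5 (without control embryo 5 of litter 2) and 288 (without *Dot1l*-cKO embryo 7 of litter 1) with single embryos left out. At an unadjusted p under 0.05 there were 2 of the 10, against 17.1% of all genes, with 1 called by DESeq2 (*Cldn5*), against 3.56%, and 0 by limma-voom, against 0.0809%. In a bulk tissue, fewer endothelial cells and less RNA per endothelial cell cannot be told apart.

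The difference between the litters was itself tested as an interaction. The log2 fold change between genotypes was higher in litter 2 than in litter 1 by 0.62 for *Emcn*, 0.61 for *Cldn5*, 0.47 for *Tie1* and 0.00 for *Mfsd2a*, with the other 6 genes between 0.34 and 0.45. None was called (adjusted p between 0.361 and 0.998), and only 2 of all genes (0.0101%) were, which became 1 to 126 with single embryos left out, the latter without *Dot1l*-cKO embryo 3 of litter 1. Of the 10, 8 had an unadjusted p under 0.05, against 8.19% of all genes, and DESeq2 and limma-voom called 0, against 0.583% and 0.00506%. Without the expression filter 5 of the 10 were called (*Cdh5*, *Cldn5*, *Emcn*, *Kdr* and *Tie1*), beside 437 of 35244 genes. With the filter, a different effect of the genotype in the litters is therefore not shown for these genes.

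**Figure D2:**
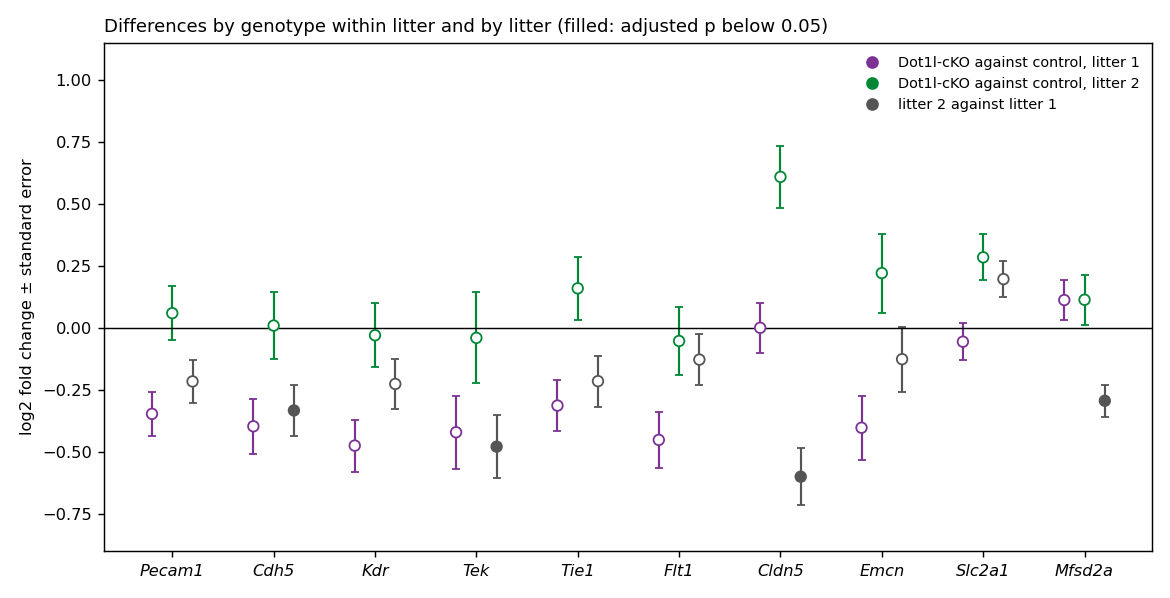
Log2 fold change with its standard error (vertical axis) for each gene, between *Dot1l*-cKO and control in litter 1 (purple), in litter 2 (green) and between litter 2 and litter 1 (grey), with filled points where the adjusted p is below 0.05. The purple points lie between -0.48 and -0.31 for 7 genes, and the filled points are the litter differences of *Cdh5*, *Tek*, *Cldn5* and *Mfsd2a*.

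Over both litters, with the litter in the model, none of the 10 genes was called between *Dot1l*-cKO and control, while 591 of all tested genes (2.99%) were. An unadjusted p under 0.05 was held by 5 (*Kdr*, *Flt1*, *Cdh5*, *Tek* and *Pecam1*), against 21.7% of all genes. DESeq2 called *Kdr* (adjusted p = 0.0416), against 8.98% of all genes, and limma-voom 0, against 2.15%. *Kdr* was at 85.0 ± 17.3 CPM in controls and 68.4 ± 5.82 CPM in *Dot1l*-cKO embryos (SD, n = 5 each), a log2 fold change of -0.30 (standard error 0.10, adjusted p = 0.106). *Flt1* was at 24.6 ± 4.48 and 20.0 ± 1.06 CPM (-0.29, 0.10, adjusted p = 0.114). *Tek* had a log2 fold change of -0.27 (adjusted p = 0.212), *Cdh5* of -0.24 (0.186), *Pecam1* of -0.19 (0.226), *Emcn* of -0.16 (0.510) and *Tie1* of -0.13 (0.496). *Cldn5* had 0.24 (adjusted p = 0.233), *Mfsd2a* 0.11 (0.320) and *Slc2a1* 0.08 (0.559). For 7 of the 10 the value in *Dot1l*-cKO embryos was the lower. None of the 10 separated all 5 from all 5, against 0.915% of all tested genes with *Dot1l*-cKO below and 1.01% with *Dot1l*-cKO above. Without *Dot1l*-cKO embryo 4 of litter 2, *Kdr* was called (-0.39, adjusted p = 0.0407). Without the expression filter, which raised the genes tested to 35244, *Cdh5*, *Kdr*, *Tek* and *Flt1* were called lower and *Cldn5* higher, against 6.25% of all genes.

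More genes were called between the litters than between the genotypes. Of all tested genes, 6858 (34.7%) were called between litter 2 and litter 1 and 3521 (17.8%) were lower in litter 2, and of the 10 genes 4 were called, all lower in litter 2. *Cldn5* fell by 0.60 on the log2 scale (standard error 0.11, adjusted p = 0.0011), from 41.0 ± 3.63 CPM (SD, n = 6) in litter 1 to 27.4 ± 7.17 CPM (SD, n = 4) in litter 2. *Tek* fell by 0.48 (0.13, adjusted p = 0.0091), from 20.6 ± 3.85 to 14.5 ± 2.91 CPM. *Cdh5* fell by 0.33 (0.10, adjusted p = 0.0208), from 67.9 ± 10.8 to 53.2 ± 8.51 CPM, a call lost without control embryo 7 of litter 2 (adjusted p = 0.0806), without *Dot1l*-cKO embryo 6 of litter 2 (0.0637) and with the robust setting of edgeR (0.0503). *Mfsd2a* fell by 0.29 (0.06, adjusted p = 0.0027), from 26.3 ± 1.86 to 21.5 ± 1.63 CPM. *Slc2a1* was the only 1 of the 10 with a higher value in litter 2, by 0.20 (0.07, adjusted p = 0.0527), and it was called with DESeq2 (0.0363, against 35.2% of all genes) and with the size factors of DESeq2 in edgeR (0.0464). The other 5 genes had log2 fold changes between -0.23 and -0.13 and were not called.

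The litters were also compared within each genotype. The difference between these comparisons is the interaction given above, for which none of the 10 was called with the expression filter. In controls alone, 8 of the 10 genes were called lower in litter 2 (12.9% of all genes tested), with *Cldn5* at -0.91 (standard error 0.09, adjusted p = 3.16e-05), *Tek* at -0.67 (0.14, adjusted p = 0.0054) and *Cdh5* at -0.54 (0.10, adjusted p = 0.0031), and *Flt1* (-0.33, adjusted p = 0.0938) and *Slc2a1* (0.03) not called. In *Dot1l*-cKO embryos alone only *Slc2a1* was called, and it was higher in litter 2 (0.36, standard error 0.09, adjusted p = 0.0228), beside 18.6% of all genes tested. Controls of litter 2 lay below all controls of litter 1 for 8 genes, against 26.4% of all tested genes. *Dot1l*-cKO embryos of litter 2 lay below all *Dot1l*-cKO embryos of litter 1 for 1 gene, *Mfsd2a*, against 25.9%. The 2 groups of controls differ in their floxed alleles and the 2 groups of *Dot1l*-cKO embryos in sex.

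**Figure D3:**
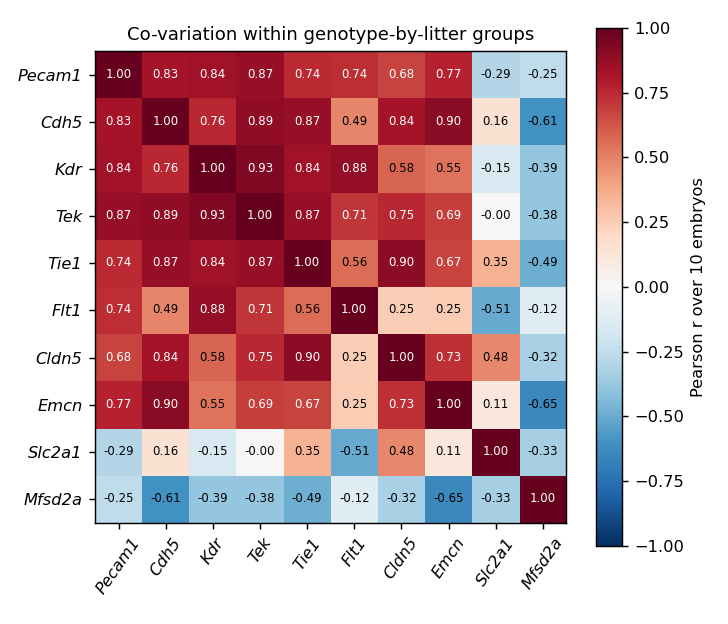
Pearson correlation (colour and number) between the 10 genes' log2 CPM over 10 embryos, after removing the mean of each genotype-by-litter group. The block of *Pecam1*, *Cdh5*, *Kdr*, *Tek* and *Tie1* lies between 0.74 and 0.93, and *Mfsd2a* is negative with all others.

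Within groups, from embryo to embryo, *Pecam1*, *Cdh5*, *Kdr*, *Tek* and *Tie1* varied together. After removal of the group means, their pairwise Pearson correlations over 10 embryos lay between 0.74 and 0.93, the highest between *Kdr* and *Tek*. *Cldn5* went closely with *Tie1* (0.90) and weakly with *Flt1* (0.25). *Slc2a1* had values between -0.51 and 0.48, and *Mfsd2a* between -0.65 and -0.12. These points share libraries, depth and scaling, and with 4 group means removed few degrees of freedom remain, so the correlations are given as a description. On the same scale, 13512 genes with a mean log2 CPM of at least 1, the 10 included, were ranked by their correlation to the mean of the 10. The 8 highest outside the 10 were *Tgfbr2* (0.98), *Ramp2* (0.97), *Rerg* (0.97), *Pdgfrb* (0.97), *Adcy4* (0.96), *Stat6* (0.96), *Wdr86* (0.95) and *Bgn* (0.95). *Ramp2* encodes an endothelial adrenomedullin receptor partner and *Pdgfrb* the receptor of pericytes.

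*Cldn5* and both transporters were then set against 30 other endothelial genes, a list without any of the 10, whose summed level lay at 590 to 623 CPM in controls and 495 to 542 CPM in *Dot1l*-cKO embryos of litter 1 and at 458 to 533 and 505 to 569 CPM in litter 2. *Cldn5* amounted to 7.01%, 6.76% and 6.43% of this sum in controls and 8.28%, 8.41% and 7.13% in *Dot1l*-cKO embryos of litter 1. In litter 2 it amounted to 4.32% and 4.44% in controls and 6.38% and 5.93% in *Dot1l*-cKO embryos. The genotypes did not overlap in either litter. Such a position, above the controls in both litters, was held by 4.11% of all tested genes and by *Cldn5* alone among the 10. In litter 1 by itself it was held by 44.4%, as the sum itself was lower there in *Dot1l*-cKO embryos, and in litter 2 by 10.5%. *Slc2a1* amounted to 16.14% to 17.96% of the sum in controls and 17.98% to 20.44% in *Dot1l*-cKO embryos of litter 1, and to 18.7% and 24.6% against 23.5% and 24.7% in litter 2, where the genotypes overlapped. *Mfsd2a* lay above the controls in litter 1, with a log2 difference of 0.35, and at -0.01 in litter 2.

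With the summed level of the 30 genes as a covariate beside the litter, *Cldn5* rose in *Dot1l*-cKO embryos by a log2 fold change of 0.40 (standard error 0.06, adjusted p = 0.0141), where 1.71% of all genes were called. This fit was extended from *Slc2a1* to the other genes after the data were examined. The call was lost without control embryo 7 of litter 2 (0.48, adjusted p = 0.0721) and without *Dot1l*-cKO embryo 4 of litter 2 (0.38, adjusted p = 0.0590), and with each of the 10 embryos left out singly the estimate stayed between 0.36 and 0.48. The other 9 genes were not called, with *Slc2a1* at 0.14 (adjusted p = 0.263) and *Kdr* at -0.16 (adjusted p = 0.156).

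**Figure D4:**
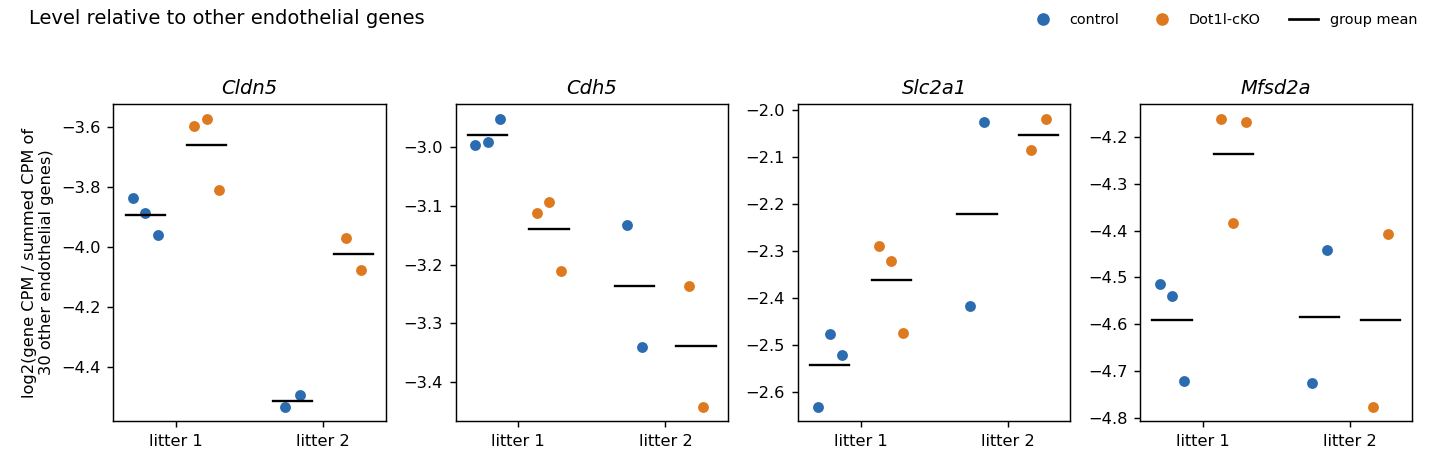
Level of *Cldn5*, *Cdh5*, *Slc2a1* and *Mfsd2a* relative to the summed CPM of 30 other endothelial genes (vertical axis, log2 ratio, each panel with its own range) in single embryos, by litter, with controls in blue, *Dot1l*-cKO embryos in orange and group means as bars. *Cldn5* lay higher in *Dot1l*-cKO embryos than in controls in both litters, by 0.23 and 0.49, and *Cdh5* had differences of -0.16 and -0.10.

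The wider vascular programme was read from lists of other genes. Over all tested genes, 50.4% had a positive log2 fold change between genotypes in litter 1 and 47.4% in litter 2, and 15.4% and 17.1% had an unadjusted p under 0.05. Calls by edgeR made up 0.612% and 0.202%, by DESeq2 4.19% and 3.56%, and by limma-voom 0.663% and 0.0809%. Of the 30 endothelial genes, 27 had a negative log2 fold change between genotypes in litter 1 (median -0.24) and 24 a positive one in litter 2 (median 0.18), and 0 were called in either, with 15 and 7 at an unadjusted p under 0.05, 7 and 2 by DESeq2 and 0 by limma-voom. Of 12 receptors for vascular signals, 12 were negative in litter 1 (median -0.30) and 7 positive in litter 2. Of 23 barrier genes, 21 were negative in litter 1 and 16 positive in litter 2, and of 14 vascular ligands, 7 and 11 were positive. Of the 78 genes of these 4 lists together, 0 were called in litter 1, with 31 at an unadjusted p under 0.05 and 14 by DESeq2. In litter 2 edgeR called only *Pdgfb*, with which endothelial cells recruit pericytes, and it rose from 7.94 and 8.22 CPM in controls to 12.2 and 13.1 CPM in *Dot1l*-cKO embryos (log2 fold change 0.64, standard error 0.11, adjusted p = 0.0423), a call that limma-voom did not make (adjusted p = 0.104). There 18 of the 78 had an unadjusted p under 0.05 and DESeq2 called 3. With the litters together 0 of the 78 were called, against 2.99% of all genes. Of the 78, 16 had an unadjusted p under 0.05 (21.7% over all genes), and DESeq2 called 4 (8.98%) and limma-voom 0 (2.15%). Those with the smallest p were *Vwf* (-0.37, adjusted p = 0.0793), the Wnt co-receptor *Lrp6* (-0.24, 0.0560), the tight junction scaffold *Tjp1* (-0.15, 0.0822) and *Vegfb* (0.15, 0.174), each the first of its list.

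Between litters, the barrier list had the most calls of the 4 vascular lists. Of its 23 genes, 13 were lower in litter 2 and 2 higher, against 17.8% lower and 16.9% higher over all genes. The thyroid hormone transporter *Slco1c1* fell from 5.80 ± 0.535 to 2.87 ± 0.312 CPM (log2 fold change -1.02, adjusted p = 8.23e-06) and the amino acid transporter *Slc38a5* from 8.24 ± 1.55 to 3.37 ± 0.595 CPM (-1.29, 2.53e-05), while the monocarboxylate transporter *Slc16a1* was among those that rose (0.53). Of the 30 endothelial genes, 7 were lower, led by *Arhgef15* (-0.49) and *Ramp2* (-0.46), and 2 higher, *Tal1* (0.54), which erythroid cells also express, and *Sox13* (0.24). Of the ligands, *Wnt7b* rose from 77.6 ± 9.88 to 136 ± 12.8 CPM (0.81, adjusted p = 7.07e-06) and *Wnt7a* by 0.29, and 3 were lower, *Pdgfb* at -0.44 and *Dll4* at -0.37 among them. Of the receptors, *Nrp1* (-0.41) and *Plxnd1* (-0.34) were lower and *Lrp6* (0.25) and *Nrp2* (0.23) higher, the last also a gene of neurons. Which cells gave the reads was not tested for any listed gene, lower or higher. Of 13 hypoxia and glycolysis genes, 4 were lower, with *Ndrg1* at -0.90 and the endothelial hypoxia factor *Epas1* at -0.54, and 2 higher, *Ldha* (0.61) and *Pgk1* (0.31).

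Markers of other cells were also compared between litters, where 17.8% of all genes were lower and 16.9% higher in litter 2, and their part in the differences above was not tested. Of 13 mural cell genes, 8 were lower in litter 2, led by *Abcc9* (-0.71) and *Ndufa4l2* (-0.68), and *Notch3* was higher (0.49), a gene that neural progenitors also express. Of 13 erythroid genes, 8 were higher, led by the embryonic globin *Hbb-bh1* (2.51, adjusted p = 3.68e-09) and *Slc4a1* (1.55), and the adult globin *Hbb-bs* was lower (-0.78). Of 11 dorsal root ganglion genes, 7 were lower, led by *Avil* (-1.78) and *Runx1* (-1.45). Of 10 neural progenitor genes, 7 were higher, led by *Hes5* (0.95) and *Nes* (0.81), and *Slc1a3* was lower (-0.63). Of 10 pan-neuronal genes, 5 were lower, led by *Rbfox3* (-0.50) and *Gap43* (-0.44). Of 12 mesenchymal genes, *Tcf21* (1.57) and *Twist1* (0.66) were among 3 higher and *Postn* (-0.61) and *Dcn* (-0.50) among 3 lower. *Mrc1* was the 1 macrophage gene of 12 called (-0.46), *Pax7*, also a gene of dorsal neural progenitors, the 1 muscle gene of 8 (1.17), and of 5 genes listed for lymphatic vessels *Pdpn* (0.74) and *Prox1* (0.31), both also neural genes, were higher and *Lyve1* lower (-0.94). Of 7 cartilage genes 0 were called (1 at an unadjusted p under 0.05, and 0 by DESeq2 or limma-voom), the smallest p being that of *Acan* (-1.83, adjusted p = 0.0668).

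**Figure D5:**
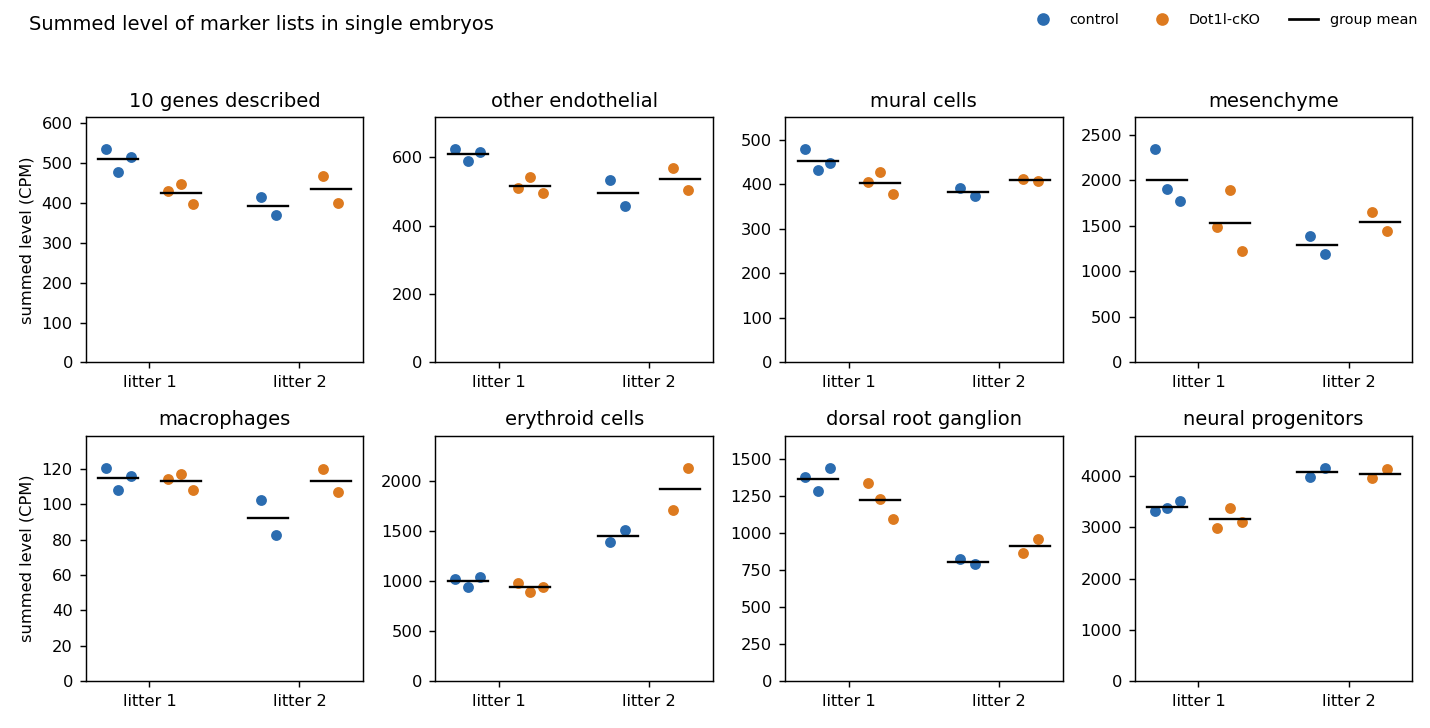
Summed level in CPM (vertical axis, starting at 0) of the 10 genes described and of 7 marker lists in single embryos, by litter, with controls in blue, *Dot1l*-cKO embryos in orange and group means as bars. The other endothelial genes lay at 590 to 623 CPM in the controls of litter 1 and at 495 to 542 CPM in its *Dot1l*-cKO embryos, and mesenchymal genes at 1776 to 2342 and 1226 to 1892 CPM.

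Mesenchymal and mural genes were compared between genotypes within each litter, and their part in the endothelial differences was not tested. In litter 1, all 12 mesenchymal genes were negative between genotypes, with a sum of 1776 to 2342 CPM in controls and 1226 to 1892 CPM in *Dot1l*-cKO embryos, and 12 of 13 mural genes were negative, with 431 to 478 and 377 to 428 CPM. In litter 2, 10 and 12 of them were positive, with mesenchymal sums of 1194 to 1387 CPM in controls and 1446 to 1650 CPM in *Dot1l*-cKO embryos and mural sums of 373 to 392 and 407 to 411 CPM. None of these genes was called within a litter, against 0.612% of all genes in litter 1 and 0.202% in litter 2. At an unadjusted p under 0.05 there were 6 mesenchymal and 6 mural genes in litter 1, against 15.4%, and 2 and 4 in litter 2, against 17.1%. DESeq2 called 2 and 2 in litter 1, against 4.19% of all genes, and 1 and 0 in litter 2, against 3.56%. Of 12 macrophage genes, 9 were positive in litter 1 and 11 in litter 2. Their sum was 108 to 121 CPM in controls and 108 to 117 CPM in *Dot1l*-cKO embryos of litter 1, and 82.6 to 102 and 107 to 120 CPM in litter 2. All 13 erythroid genes were positive in litter 2, where *Hba-a1* was called (1.46, adjusted p = 0.0423). Dorsal root ganglion genes were called within litters too, among them *Runx3* (-1.10, adjusted p = 0.0165) in litter 1 and *Avil* (1.07, adjusted p = 0.0423) in litter 2. The calls of *Hba-a1* and *Avil* were lost with limma-voom (adjusted p = 0.0977 and 0.180). The remaining lists, on hypoxia and glycolysis, lymphatic vessels, macrophages, cartilage, muscle, neural progenitors and neurons, had no call within a litter by edgeR or limma-voom, with 1 to 4 genes each at an unadjusted p under 0.05 in litter 1 and 0 to 5 in litter 2, and 0 to 1 by DESeq2.

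Over both litters, the genes called between genotypes in these marker lists were *Hbb-bh1*, which rose by 0.41 (adjusted p = 0.0348), and *Runx3*, which fell by 0.71 (adjusted p = 0.0483). Over all tested genes 2.99% were called. The lists without a call had 0 to 6 genes each at an unadjusted p under 0.05, against 21.7% of all genes. They had 0 to 1 called by DESeq2, against 8.98%, and 0 by limma-voom, against 2.15%. In these, the gene with the smallest p was *C1qc* for macrophages (0.44, adjusted p = 0.0575), *Acta2* for mural cells (-0.78, 0.136), *Lum* for mesenchyme (-0.26, 0.126), *Ttn* for muscle (-1.53, 0.0734), *Col11a1* for cartilage (-0.19, 0.245), *Prox1* for lymphatic vessels (-0.18, 0.0898), *Ldha* for hypoxia and glycolysis (-0.18, 0.138), *Ednrb* for neural progenitors (-0.12, 0.245) and *Rbfox3* for neurons (0.26, 0.0820).

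With *Xist* as a covariate, so that the genotype difference rested mainly on litter 1, 49 genes (0.24%) were called over both litters and none of the 10, 7 of which had an unadjusted p under 0.05, against 13.6% of all genes. The median log2 fold change of the 10 was then -0.39, with *Kdr* at -0.49 (adjusted p = 0.104) and *Cldn5* at -0.03.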

How the data were processed

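Lumbar spinal cord RNA from 5 control and 5 *Dot1l*-cKO embryos of 2 litters was analysed. The authors deposited raw read counts for 54146 genes, made with snakePipes (TrimGalore for trimming, STAR on mm10, featureCounts for genes). The strand setting is not given in the sources used here, so reads of overlapping antisense genes cannot be told apart. The genes overlapping *Cdh5* and *Slc2a1* held at most 0.579% of the member's count. GENCODE annotation of GRCm38 matched 54079 identifiers.

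From the counts, R 4.3.3 with edgeR 4.0.16 was used: filterByExpr, TMM, and the quasi-likelihood test with default settings, Benjamini-Hochberg adjustment at 0.05 over all genes, and the litter as covariate. Within-litter differences and their interaction came from a model of 4 genotype-by-litter groups. The standard error was the log2 fold change divided by the square root of F. Alternatives were DESeq2 1.42.0, limma-voom (limma 3.58.1), other scalings and filters, and leaving out each embryo. Shares of genes called by DESeq2 are of those to which it gave an adjusted p. No embryo repeated another of its genotype within sampling noise.

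Members, lists and tests were chosen with earlier results of these data known. Companion genes named are the up to 2 called genes in each direction with the largest log2 fold change per list, by genotype and by litter, or where none was called the gene with the smallest p. Genes called within a litter were named after their values were seen. *Slco1a4*, *Higd1b*, *Ccl21a* and *Matn1* fell below the filter, and *Ahsp* and *Drgx* are not analysed here. Some called genes of the lists are counted but not reported by name here.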

Additional observations from a re-analysis of the deposited data

How the results depend on the processing

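No paired analysis was possible because numbers are given within a litter, so that an equal number in the other genotype belongs to an embryo of the other litter, and the litter is already in the model. Of the 10 genes, 0 were called between genotypes, which became 5 without the expression filter, 1 with DESeq2 and 1 with the endothelial sum as covariate, and 0 to 1 with single embryos left out. Over all genes the 591 calls became 2201 without the filter, 1508 with DESeq2, 339 with the endothelial sum, 49 with *Xist* and 0 without the litter (1867 at an unadjusted p under 0.05), and 53 to 1377 with single embryos left out. Between litters, the 4 genes called (6858 of all genes) became 8 without the filter (7006), 8 in controls alone (4728) and 1 in *Dot1l*-cKO embryos alone (3661). They became 5 with DESeq2 (7123) or its size factors (6925), with *Slc2a1* added in both, 5 with library size only (6852, *Pecam1* added), 3 with the robust setting (6902, *Cdh5* lost) and 3 to 7 with single embryos left out (5831 to 6976). Within litter 1, 7 of the 10 were called without the filter (1397 of all genes), 4 with DESeq2 (647) and 0 to 2 with single embryos left out (2 to 649). Within litter 2 these were 2 without the filter (1335), 1 with DESeq2 (549), 2 with litter 2 fitted alone (964) and 0 to 1 with single embryos left out (5 to 288), and for the interaction 5 without the filter (437).

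Sign changes, none of a value called with the settings first described, were as follows. Other settings did call some of these genes. *Cldn5* was called higher between genotypes without the filter and with the endothelial sum, and *Tie1* and *Emcn* lower in litter 2 in controls alone. Between genotypes, *Cldn5* became -0.034 and *Slc2a1* -0.078 with *Xist*, and *Tie1* 0.012 and *Emcn* 0.019 with the endothelial sum. Between litters, *Dot1l*-cKO embryos alone gave 0.017 for *Tie1*, 0.069 for *Flt1* and 0.18 for *Emcn*, and *Emcn* lay between -0.29 and 0.014 with single embryos left out. In litter 1, *Cldn5* was 0.0077 with library size only, 0.0062 without the filter, 0.0020 with at least 10 counts in every embryo and 0.0053 with litter 1 alone. With single embryos left out, litter 1 gave -0.085 to 0.098 for *Cldn5* and -0.12 to 0.025 for *Slc2a1*. Litter 2 gave -0.092 to 0.24 for *Pecam1*, -0.19 to 0.25 for *Cdh5*, -0.21 to 0.13 for *Kdr*, -0.32 to 0.22 for *Tek*, -0.0037 to 0.31 for *Tie1*, -0.20 to 0.12 for *Flt1* and -0.00052 to 0.45 for *Emcn*. For the interaction, *Mfsd2a* was -0.00062 with the count minimum, -0.0030 with limma-voom and between -0.10 and 0.10 with single embryos left out. The cause of these changes was not tested. Leaving out the filter changes how many genes are tested, and the standard errors changed with it. For *Kdr* between genotypes the standard error went from 0.10 to 0.06, at log2 fold changes of -0.30 and -0.29. For *Mfsd2a* between litters it went from 0.06 to 0.08. With 2 embryos of each genotype in litter 2, 1 embryo decides the sign of all genes but *Cldn5*, *Slc2a1* and *Mfsd2a* there.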
